A study of Mus musculus with 5 samples.

Results

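The MYC and G1 cell-cycle genes are 10 genes that set whether a cell enters the division cycle: the MYC family (Myc, Mycn and Mycl), the G1 cyclins (Ccnd1, Ccnd2, Ccnd3 and Ccne1) and the inhibitors of cyclin-dependent kinases, or CDKs (Cdkn1a, Cdkn1b and Cdkn2a). They were chosen by name among 21883 protein-coding genes, and each deposited peak of V5-tagged KLF5 with its summit inside one of them or within 50 kb of its ends (mm10) was counted. This gave 97 of 45378 peaks, each in the window of a single gene. KLF5, a zinc-finger transcription factor, was located by chromatin immunoprecipitation and sequencing (ChIP-seq) with an anti-V5 antibody in wild-type mouse embryonic stem (ES) cells, derived from C57B6/J mice, that overexpressed V5-KLF5. The controls were a normal mouse IgG immunoprecipitate of those V5-KLF5 cells and an anti-V5 immunoprecipitate of wild-type ES-D3 cells, an established mouse ES line without the tag, each set against input DNA of its own cells. Each group is 1 library, and the tagged protein was overexpressed, so the peaks describe that protein in 1 culture and not KLF5 at its own level.

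MYC proteins are transcription factors that dimerise with MAX and bind E-box sequences, and they drive genes of growth and biosynthesis. D-type cyclins activate CDK4 and CDK6, cyclin E activates CDK2, and these kinases phosphorylate the retinoblastoma protein, which frees E2F factors to switch on S phase genes. The CDK inhibitors hold this step back, and ES cells are known for a short G1 phase and for the use of MYC proteins in self-renewal.

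After duplicates were removed, the anti-V5 library of the V5-KLF5 cells held 23.2 M (mega) tags, the IgG library 24.5 M and the anti-V5 library of the untagged cells 21.8 M. The IgG list holds 3 peaks in all and the list of the untagged cells holds 0, and neither has a peak in any of the 10 windows. Control tags that formed no peak were not examined. The run name in the header of the untagged library gives another ES line, JM8.N4, so which line it is remains uncertain. ChIP-seq does not measure transcripts, so ES cell markers could not be checked.

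All 10 genes had a V5-KLF5 peak, where 81.1% of protein-coding genes did within the same window. A peak with a fold enrichment of at least 10 lay in the window of 7 of 10, against 40.8% of protein-coding genes. Fold enrichment is the authors' ratio of tags at the summit to the input background. The 3 without such a peak were Myc, Mycl and Cdkn2a. That count rested in part on neighbouring genes. When a peak was kept only where the gene held the summit or was the nearest protein-coding gene, 4 of 10 had a peak of at least 10 (Mycn, Ccnd3, Ccne1 and Cdkn1a), against 18.6% of protein-coding genes. Within 10 kb of the gene ends 3 of 10 did (Mycn, Ccnd3 and Cdkn1a), against 22.2%. With 1 library there is no test of these differences.

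The genes Cdkn1a, Cdkn2a and Ccnd3 have 2 start sites each in RefSeq, so the peaks at the starts of 1 gene can be set side by side, and their promoters are shown first. Each sequence is the 250 bases before the start, 5′ to 3′ on the strand of the gene, from RefSeq (GRCm38.p6, the assembly that mm10 names). Capitals mark matches to CCNCNCCC on either strand, a GC-rich and CACC-type box of the kind that KLF and SP zinc fingers are known to bind. The outer start is the one farther upstream and the inner start lies within the gene.
Cdkn1a outer (chr17:29090729-29090978, plus strand): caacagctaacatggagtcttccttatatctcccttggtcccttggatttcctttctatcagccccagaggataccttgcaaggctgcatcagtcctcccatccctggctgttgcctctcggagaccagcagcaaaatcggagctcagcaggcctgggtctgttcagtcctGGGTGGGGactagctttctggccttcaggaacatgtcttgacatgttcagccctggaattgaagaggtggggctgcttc
Cdkn1a inner (chr17:29093519-29093768, plus strand): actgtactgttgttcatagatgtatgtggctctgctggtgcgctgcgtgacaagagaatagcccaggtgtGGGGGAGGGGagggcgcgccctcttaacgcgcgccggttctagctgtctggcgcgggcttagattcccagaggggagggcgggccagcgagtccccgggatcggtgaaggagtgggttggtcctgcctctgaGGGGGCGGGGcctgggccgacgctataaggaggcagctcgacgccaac
Cdkn2a outer (chr4:89294620-89294869, minus strand): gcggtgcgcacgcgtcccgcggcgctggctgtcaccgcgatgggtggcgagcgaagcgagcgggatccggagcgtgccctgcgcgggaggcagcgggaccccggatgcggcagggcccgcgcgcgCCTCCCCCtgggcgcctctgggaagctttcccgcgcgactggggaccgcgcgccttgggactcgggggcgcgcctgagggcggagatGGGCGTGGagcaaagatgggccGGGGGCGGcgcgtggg
Cdkn2a inner (chr4:89282193-89282442, minus strand): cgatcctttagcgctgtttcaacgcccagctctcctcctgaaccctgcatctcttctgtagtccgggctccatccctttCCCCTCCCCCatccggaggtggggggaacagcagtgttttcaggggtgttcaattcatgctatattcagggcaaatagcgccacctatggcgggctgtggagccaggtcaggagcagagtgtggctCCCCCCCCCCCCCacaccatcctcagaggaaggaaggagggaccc
Ccnd3 outer (chr17:47504801-47505050, plus strand): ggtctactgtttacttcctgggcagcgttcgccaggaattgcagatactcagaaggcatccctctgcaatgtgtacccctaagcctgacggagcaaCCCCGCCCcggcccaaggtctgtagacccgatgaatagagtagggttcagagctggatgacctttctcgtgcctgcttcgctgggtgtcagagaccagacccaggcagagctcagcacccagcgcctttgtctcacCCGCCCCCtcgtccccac
Ccnd3 inner (chr17:47593217-47593466, plus strand): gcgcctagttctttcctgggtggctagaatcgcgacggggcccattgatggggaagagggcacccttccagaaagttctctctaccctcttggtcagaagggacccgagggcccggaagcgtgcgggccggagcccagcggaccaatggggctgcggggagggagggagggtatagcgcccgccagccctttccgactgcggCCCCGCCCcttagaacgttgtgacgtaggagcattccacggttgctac

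Cdkn1a encodes the CDK inhibitor that p53 is known to induce. At its inner start (Cdkn1a inner above) a peak at chr17:29093273-29094223 had 66 tags at the summit over an input background of 4.60, a fold enrichment of 11.96 with a 95% counting interval of 9.29 to 15.2. The interval is the exact Poisson interval of the tags and covers counting error only. At the outer start a peak at chr17:29090794-29091177 had 26 tags over 4.41, a fold enrichment of 4.99 (3.32 to 7.23). The intervals of the inner and outer starts did not overlap. The inner promoter held 4 matches to CCNCNCCC, overlapping matches included, with a GC content of 64.8% and 19 CpGs, and the outer promoter held 1 match, 54.0% GC and 2 CpGs.

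Cdkn2a encodes the INK4A inhibitor of CDK4 and CDK6 from its inner start and ARF, an inhibitor of MDM2, from its outer start. The peak at the outer start, chr4:89294220-89295043, had its summit 4 bp from the start with 39 tags over a background of 3.10, a fold enrichment of 9.76 (7.01 to 13.3). The peak at the inner start, chr4:89282363-89282657, had its summit 301 bp upstream of that start with 23 tags over 3.64, a fold enrichment of 5.17 (3.36 to 7.65). The ARF start thus had the higher value, but the intervals overlapped. The stronger peak lay over the promoter with 3 matches to CCNCNCCC, 78.4% GC and 40 CpGs. The weaker lay over the promoter with 8 matches, 60.0% GC and 7 CpGs, where most matches overlap in a run of C.

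Ccnd3 encodes cyclin D3. No peak touched its outer promoter, although that promoter held 2 matches to CCNCNCCC. The nearest summits stood 2686 bp upstream of it, next to Taf8, and 3077 bp downstream, inside Ccnd3. Its inner start had a peak at chr17:47593351-47593671 with the summit 56 bp downstream, 19 tags over 3.10 and a fold enrichment of 4.88 (3.04 to 7.48). Farther downstream of that start, summits inside Ccnd3 at 1323, 2359, 3539 and 4906 bp had 4.59, 9.72, 11.5 and 8.54.

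RefSeq starts were used for 7 of the genes, with 10 promoters of 300 bases (250 before to 50 after the start). Sequences of Myc, Ccnd1 and Ccnd2 are not shown. A peak overlapped 9 of 10 promoters, where 33.7% of 32851 RefSeq promoters were overlapped. A summit lay inside 4 of 10, against 19.5%. These were the promoters of Mycn, of Cdkn1a at both starts and of Cdkn2a at its outer start. All 10 held CCNCNCCC, 5 held CCCCGCCC, 2 held CCCCACCC and 0 held the E-box CACGTG, each searched on both strands in the 250 bases before the start. CCCCGCCC and CCCCACCC are special cases of CCNCNCCC. Over all promoters the shares were 45.9%, 16.1%, 9.05% and 6.02%, and over the 11061 promoters under a peak 72.0%, 35.4%, 13.0% and 8.96%. The 10 promoters of these 7 genes had a median GC content of 64.0% (range 54.0% to 78.4%), close to the median of 62.0% of promoters under a peak and above the 48.0% of those not under one.

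**Figure D1:**
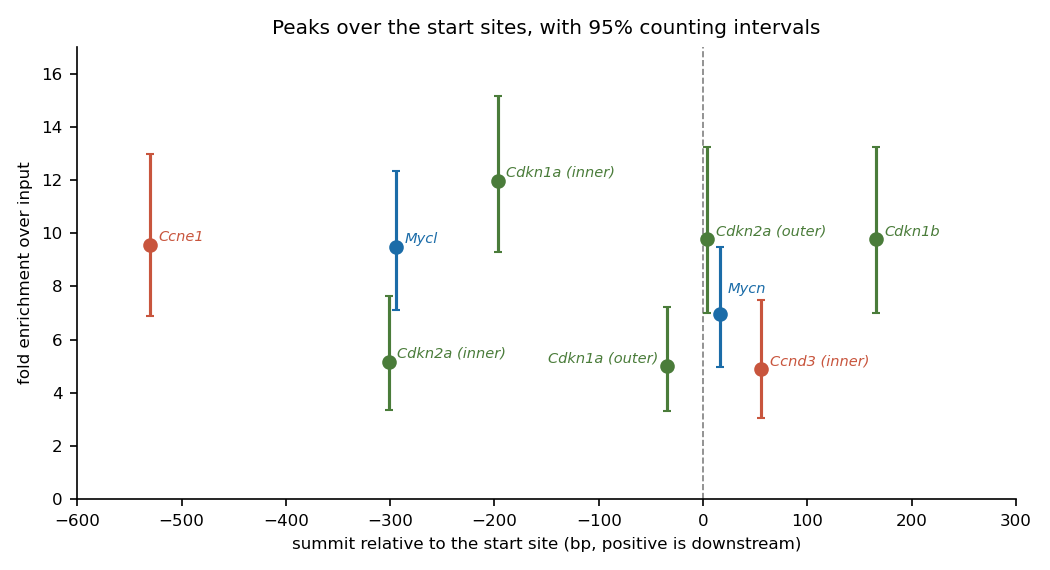
Fold enrichment of the strongest peak over each start site (vertical axis) against the position of its summit (horizontal axis, bp, positive downstream), with the 95% counting interval, for the 9 promoters that a peak overlapped. Blue marks the MYC family, red the G1 cyclins and green the CDK inhibitors. The inner start of Cdkn1a is the highest at 11.96, and the inner starts of Cdkn2a and Ccnd3 and the outer start of Cdkn1a lie near 5.

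The MYC family had 23 peaks. Myc (chromosome 15, 61985341 to 61990361), which encodes c-MYC, had 8, with fold enrichments from 4.11 to 9.48, and in each case Myc was the nearest protein-coding gene. The pair with the highest values lay inside the gene. The summit at chr15:61984972-61985790 stood 230 bp inside the low-coordinate end with 37 tags over 3.10 (9.27), and that at chr15:61986666-61988413 had 43 tags over 3.64 (9.48, interval 6.92 to 12.7). Another 3 stood outside the low-coordinate end, at 935, 1912 and 6384 bp, with 4.11, 6.62 and 6.25. Beyond the high-coordinate end there was no summit until a pair at 20659 and 22481 bp, with 54 tags over 6.13 (7.71) and 56 tags over 5.37 (8.95). That pair had the most tags of the window, on an input background higher than that under the peaks in the gene.

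Mycn (chromosome 12, 12936093 to 12941836), which encodes N-MYC and is highly expressed in ES cells and early embryos, had 10 peaks and the strongest of all 97. That peak, chr12:12942178-12944157, stood 1655 bp upstream of the start with 87 tags over a background of 3.26 and a fold enrichment of 20.7 (16.6 to 25.4). At the start itself the peak at chr12:12941283-12942103 had its summit 16 bp downstream, with 38 tags over 4.60 (6.96, interval 4.98 to 9.49). The upstream peak was the higher, with intervals that did not overlap. Inside the gene were 3 more, of which the one at chr12:12938606-12939356 had 68 tags but stood on an input background of 7.67, so that its fold enrichment was 7.96. The other 5 lay 8833 to 45534 bp from the gene, with fold enrichments of 3.21 to 8.30.

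Mycl (chromosome 4, 122995588 to 123002490), which encodes L-MYC, had 5 peaks. Its strongest, chr4:122995389-122995985, lay over the promoter with 52 tags over 4.60 and a fold enrichment of 9.46 (7.11 to 12.4). The other 4 were weaker, from 3.50 to 6.35, and the highest of them lay inside Mfsd2a, a lipid transporter gene, 39946 bp from Mycl.

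**Figure D2:**
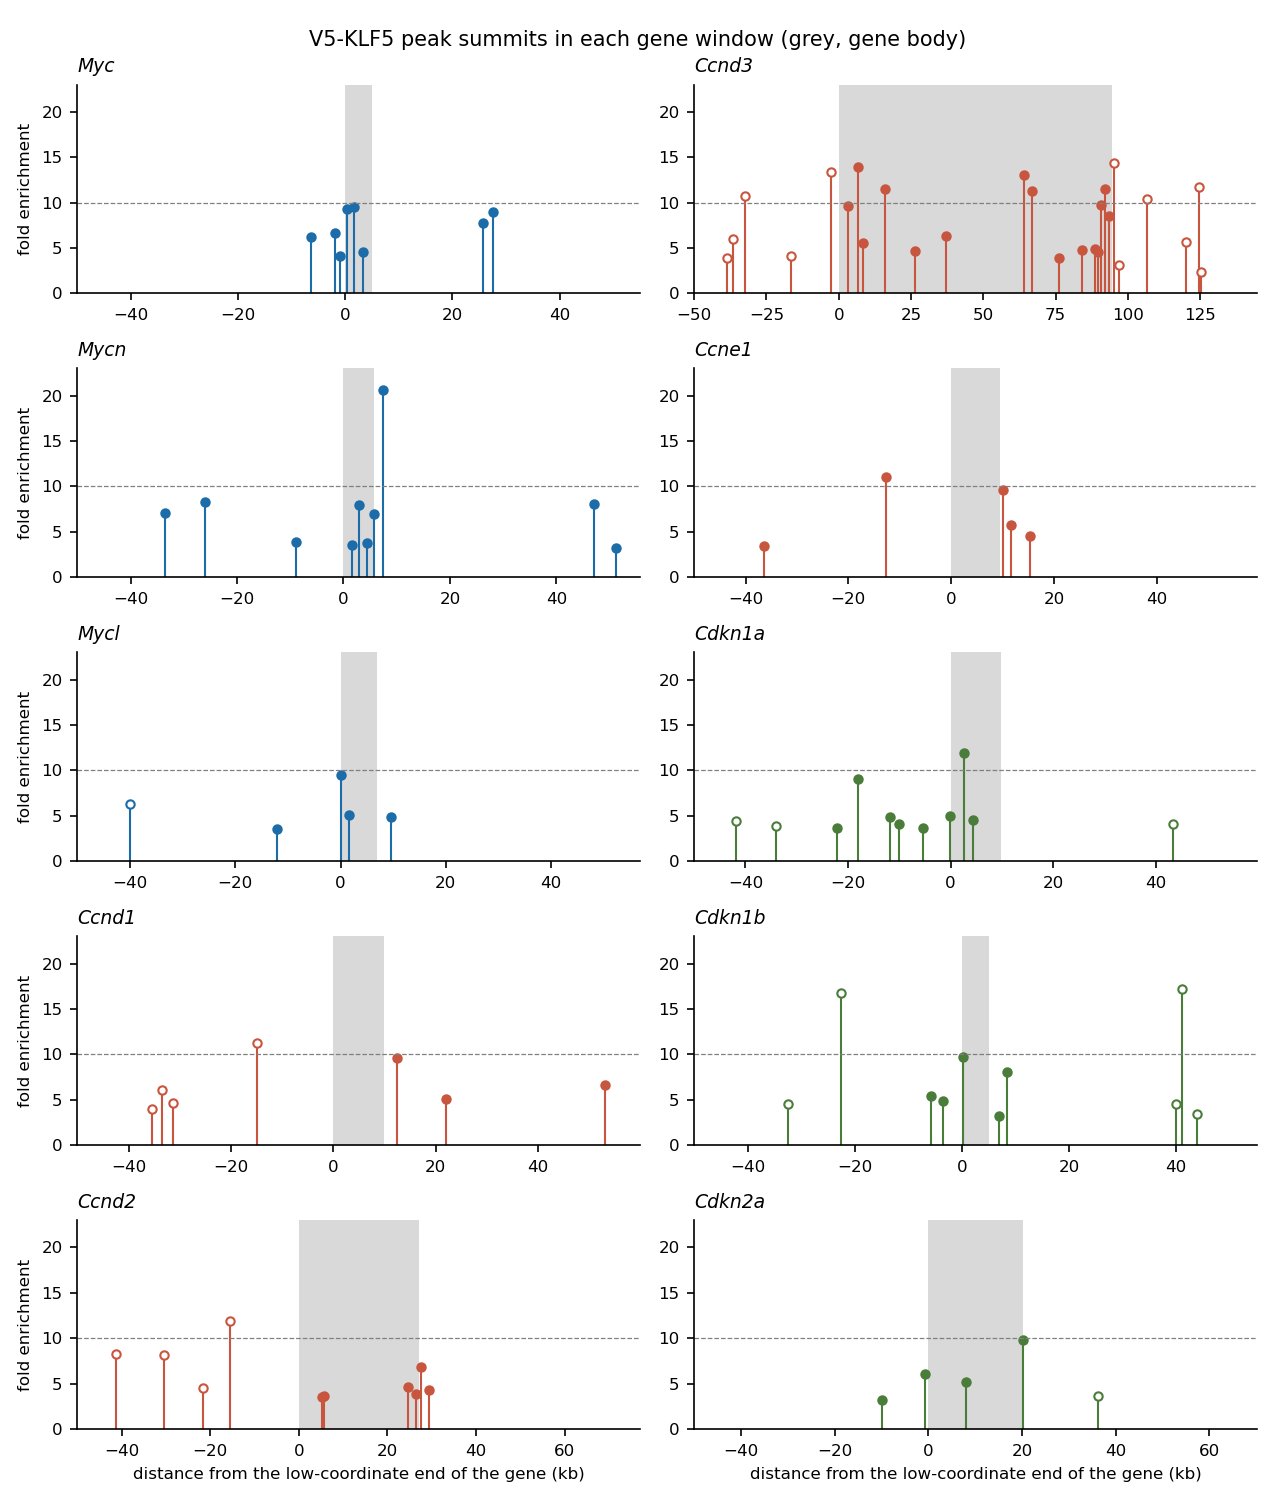
Fold enrichment of each V5-KLF5 peak (vertical axis) at its summit (horizontal axis, kb from the low-coordinate end of the gene) in the 10 windows of the gene and 50 kb on each side. The grey band is the gene, filled circles have that gene as the nearest protein-coding gene, open circles another, and the dashed line is a fold enrichment of 10. Peaks of Ccnd3 fill its window, and the tall peaks of Ccnd1, Ccnd2 and Cdkn1b that pass the line are open.

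The G1 cyclins had 48 peaks, of which Ccnd3 held 26. Ccnd3 (chromosome 17, 47505051 to 47599689) is the longest of the 10 genes, at 94639 bp, and 15 of its peaks lay inside it. In all windows 17 peaks reached a fold enrichment of 10, and 10 of them were in the window of Ccnd3. Those inside the gene that passed 10 were at 6644, 15842, 64104, 66865 and 91955 bp from its outer start, with 13.9, 11.5, 13.0, 11.3 and 11.5. The one with most tags was chr17:47510886-47512087, with 90 tags over 5.56. The strongest in the window, chr17:47599882-47600453, had 58 tags over 3.10 (14.4, interval 11.0 to 18.5) and lay inside Bysl, a ribosome biogenesis gene, 468 bp beyond the high-coordinate end of Ccnd3. The other 4 that passed 10 lay nearer to other genes: Taf8, which encodes a subunit of TFIID (13.3, 44 bp from its end), AI661453 (10.7), Gm20517 (11.7), and Gm20517 and the Mediator gene Med20 together (10.4).

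Ccnd1 (chromosome 7, 144929931 to 144939831), which encodes cyclin D1, had 7 peaks and none inside the gene. The nearest stood 2538 bp outside its high-coordinate end. That peak, chr7:144941203-144943657, was the longest of the 97, at 2455 bp, with 49 tags over 4.22 and a fold enrichment of 9.58. The strongest in the window had 45 tags over 3.10 (11.2, interval 8.25 to 14.9) and lay 76 bp from an end of LTO1. Of the other 5, 3 lay at Fgf15, an FGF gene, with 4.03 to 6.10, and a pair lay 12140 and 43100 bp beyond the high-coordinate end, with 5.10 and 6.59.

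Ccnd2 (chromosome 6, 127125162 to 127152188), which encodes cyclin D2, had 10 peaks, and those at the gene itself were weak. The 4 inside it had 14 to 18 tags at the summit and fold enrichments of 3.52 to 4.64. Just outside its high-coordinate end, 437 and 2356 bp away, were peaks with 27 tags (6.83) and 20 tags (4.34), nearer to the noncoding gene 9330179D12Rik. The other 4 lay at Tigar, a gene of sugar phosphate metabolism. Their values included the 3 highest of the window. They had 33 tags (8.30), 45 tags (8.21), 42 tags (4.56, on an input background of 8.43) and, 151 bp from the end of Tigar, 48 tags (11.96, interval 8.88 to 15.8).

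Ccne1 (chromosome 7, 38097984 to 38107490), which encodes cyclin E1, had 5 peaks and none inside the gene. The peak that reached its promoter, chr7:38107616-38108520, had its summit 530 bp upstream of the start with 39 tags over 3.18 (9.56, interval 6.87 to 13.0). Its promoter had 7 matches to CCNCNCCC and 76.0% GC. Farther upstream, summits at 2055 and 5745 bp had 5.71 and 4.49. The strongest, chr7:38084679-38086335, lay beyond the 3′ end, 12761 bp from the gene and nearer to the noncoding gene Gm30771, with 69 tags over 5.37 (10.99, interval 8.59 to 13.9). The fifth, 36391 bp beyond that end, had 13 tags (3.42).

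The CDK inhibitors had 26 peaks. Cdkn1a (chromosome 17, 29090979 to 29100722) had 11. Besides those at its start sites, 1 peak lay deeper in the gene, with 20 tags (4.52). Upstream, 4 summits lay in or nearest to Trp53cor1, a noncoding RNA gene known as lincRNA-p21, with 3.67, 9.10, 4.87 and 4.15. The highest, chr17:29072739-29073400, stood 18046 bp upstream of Cdkn1a with 43 tags over 3.83. The last of the 4 had 35 tags but an input background of 7.67. The other 4 peaks, 5396 bp upstream, on the side of Srsf3 and in Rab44, had 3.66 to 4.45.

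Cdkn1b (chromosome 6, 134920401 to 134925525), whose product inhibits cyclin E with CDK2, had 10 peaks, and the strongest stood far from the gene. At its start the peak at chr6:134919997-134920884 had its summit 166 bp downstream with 39 tags over 3.10 (9.76, interval 7.01 to 13.3). A summit 3316 bp beyond the gene had 32 tags (8.05). The strongest, chr6:134960762-134961927, stood 35924 bp beyond the high-coordinate end with 82 tags over 3.83 (17.2, interval 13.7 to 21.3). The noncoding gene Lockd was nearer to it than Apold1, the nearest protein-coding gene, whose end was 20552 bp away. On the other side, chr6:134897596-134898645, inside the receptor gene Gpr19, had 83 tags over 4.03 (16.7) and stood 22484 bp from Cdkn1b. The interval of the strongest did not overlap that of the start. The other 6 peaks had fold enrichments of 3.26 to 5.39.

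Cdkn2a (chromosome 4, 89274473 to 89294619) had 5 peaks. Besides the peaks at its start sites there was a summit 791 bp beyond its 3′ end with 24 tags (6.10) and another 9827 bp beyond it with 12 tags (3.17), the lowest number of tags of the 97. The remaining peak lay inside Cdkn2b, the neighbouring INK4 inhibitor gene, with 25 tags over 6.13 (3.64).

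Ordered by the strongest peak in the window, the genes ran from Mycn (20.7), Cdkn1b (17.2), Ccnd3 (14.4), Cdkn1a (11.96), Ccnd2 (11.96), Ccnd1 (11.2), Ccne1 (10.99), Cdkn2a (9.76) and Myc (9.48) to Mycl (9.46). The counting intervals of neighbours in this order overlapped throughout. That of Mycn lay above those of the 7 genes from Cdkn1a down, and that of Cdkn1b above those of Cdkn2a, Myc and Mycl. The median over the 10 genes was 11.6, and over the 17741 protein-coding genes with a peak in the window it was 10.01 (quartiles 7.08 and 13.9). The 3 genes above the upper quartile were Mycn, Cdkn1b and Ccnd3. A window with more peaks has more chances of a strong one, and for 4 of the 10 (Ccnd1, Ccnd2, Ccnd3 and Cdkn1b) the strongest peak had another protein-coding gene nearest.

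**Figure D3:**
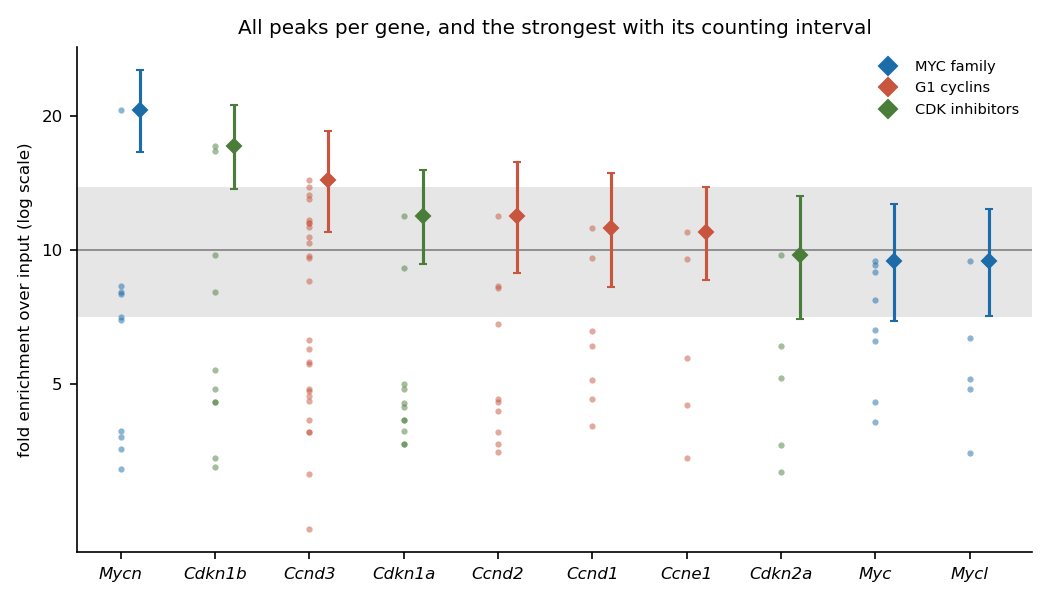
Fold enrichment over input (vertical axis, log scale) of all 97 peaks by gene (small circles), and the strongest peak of each gene with its 95% counting interval (diamonds and bars). The grey line and band are the median (10.01) and quartiles (7.08 and 13.9) of the strongest peak over protein-coding genes with a peak. Mycn stands highest at 20.7, with the rest of its peaks below 10.

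In the 50 kb window, the median density of the 10 genes lay above the upper quartile of protein-coding genes. Their median strongest peak lay between the median and the upper quartile. The density quartiles cover all protein-coding genes, and those of the strongest peak only the genes with a peak. The comparison is therefore not like for like. The 10 windows held 97 peaks (interval 78.7 to 118) in 1.19 Mb, or 8.13 per 100 kb. That interval treats peaks as independent counts and does not cover their clustering by gene or the spread between libraries. The median over the 10 genes was 7.74 per 100 kb, and over all protein-coding genes 2.82 (quartiles 0.851 and 5.99). All 10 genes lay above that median and 7 above the upper quartile, the exceptions being Mycl (4.68), Ccne1 (4.57) and Cdkn2a (4.16). Ccnd3 was the densest, at 13.4, and ranked 930 of 21883. A fold enrichment of 10 was reached by 17.5% of the 97 peaks, or 17 peaks, against 13.0% of all peaks, and without Ccnd3 by 7 of 71. Their median fold enrichment was 5.61 and that of all peaks 5.18.

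**Figure D4:**
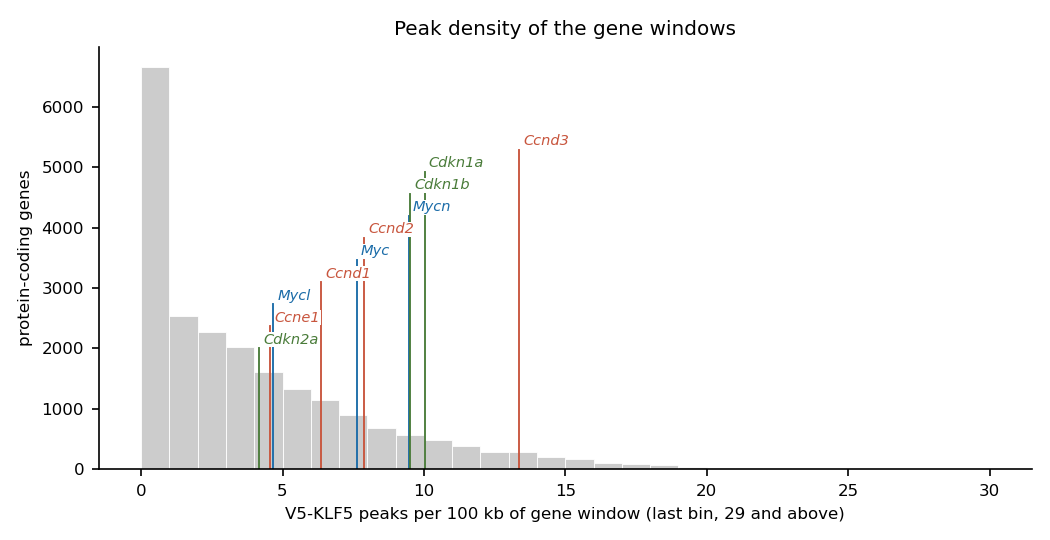
Number of protein-coding genes (grey bars, vertical axis) by V5-KLF5 peaks per 100 kb of the gene and 50 kb on each side (horizontal axis), with lines at the 10 genes in the colours of their roles (blue MYC family, red G1 cyclins, green CDK inhibitors). The heights of the lines have no meaning. All 10 lie above the median of 2.82, and Ccnd3 lies farthest right at 13.4.

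A summit lay within 1 kb of an end in 9 of 10 genes, the exception being Ccnd1, against 50.5% of protein-coding genes. As a share of peaks there was little difference. Of the 97 peaks, 12 (12.4%) lay within 1 kb of an end, against 12.0% over all windows of protein-coding genes. The 12 such peaks had a median fold enrichment of 8.12 (range 3.90 to 14.4), and the 85 farther out 5.17. Over all windows of protein-coding genes the medians were 5.61 and 5.18. Among the 12, 1 (8.33%) passed a fold enrichment of 10, the peak in Bysl beyond the end of Ccnd3. The matching share for all protein-coding windows was 14.6%, and 12 peaks are too few to tell these shares apart. The other 16 peaks that passed 10 stood more than 1 kb from an end of these genes. They were 18.8% of the 85, where the share for all protein-coding windows was 13.1%. An end here is an outer bound of the gene, so inner starts are not counted. The 16 include the peak at the inner start of Cdkn1a (11.96), with its summit 197 bp upstream of that start. Of the 97 summits, 33 lay inside the gene (34.0%, against 22.4% over all windows), 15 of them in Ccnd3. In 68 the gene was the nearest protein-coding gene (70.1%, against 36.1%). The shares over all windows count a peak once for each gene window that holds it, so stretches with many genes weigh more. Each of the 97 was counted once.

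The input under the peaks was close to that under all peaks. The genome-wide floor of 3.10 was the background of 32 of the 97 peaks (33.0%), against 37.2% of all peaks, and 4 (4.12%) stood above 6.13, the 95th percentile of all peaks, against 2.97% of all peaks, since many peaks are tied at that value. These 4 were 1 in Mycn, 1 at Tigar and 2 upstream of Cdkn1a, with fold enrichments of 7.96, 4.56, 3.92 and 4.15. The outermost summit counted was at Mycn, 45534 bp from the gene, with 3.21, and the first left out were at Mycl, 50961 bp away with 4.15, and at Myc, 51650 bp away with 2.67.

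The wider network was described with 39 more genes in 5 lists. All 39 had a peak in the window, against 81.1% of protein-coding genes. Of the 39, 21 had one with a fold enrichment of at least 10, against 40.8% of protein-coding genes. The median strongest peak was 10.1, against 11.6 for the 10 genes above. The median density was 5.25 peaks per 100 kb, against 7.74 for the 10 genes and 2.82 for all protein-coding genes. By list it was 8.51 (turnover and p53 axis), 8.21 (other CDK inhibitors) and 7.04 (other cyclins, kinases and phosphatase). It was 6.57 for MYC network partners and 3.52 for pocket protein, E2F and DP genes. A high density was thus not particular to the 10 genes. For 16 of 39 the strongest peak had the gene itself as the nearest protein-coding gene, and for 6 of the 10. No share over all protein-coding genes stands beside these counts, so they are not read as a difference. Partners of the MYC network passed 10 in 6 of 10 cases, led by Max, the dimerisation partner of MYC, with 38.7 at a peak 35502 bp away and nearer to Fntb, and by Mlxip with 18.2 at a peak nearer to Bcl7a. Of the other cyclins, kinases and the phosphatase, 3 of 6 passed, led by Cdk2 with 20.1 at a peak nearer to Pym1 and by Cdc25a, which encodes a phosphatase that activates CDK2, with 19.6.

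Of the other CDK inhibitor genes 2 of 4 passed, Cdkn1c with 14.6 at a summit 76 bp from its end and Cdkn2d with 14.3 at a peak nearer to Slc44a2. The window of Cdkn2b shared 5 of its 6 peaks with that of Cdkn2a, whose outer start gave its strongest. Pocket protein, E2F and DP genes passed in 6 of 13 cases, led by E2f4 with 20.3 at a summit 156 bp from its end and nearer to Elmo3, and by E2f2 with 16.1. Rb1, the retinoblastoma gene, had 4 peaks and a strongest of 7.45, named here after its value was seen. In the list of protein turnover and the p53 axis 4 of 6 passed, led by Fbxw7, which encodes a ubiquitin ligase subunit for MYC and cyclin E, with 22.9 at a summit 491 bp from its end, and by Cks1b with 21.5 at a peak nearer to Zbtb7b.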

How the data were processed

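The authors deposited MACS2 2.1.0.20140616 peak lists, per the file headers, called on single libraries against the input of the same cells (51 bp tags extended to 250 bp, 1 tag per position kept, larger dataset scaled to the smaller, q cutoff 0.05). The submitters' processing notes name mm10 and Bowtie 0.12.8. For reads with several matches, the treatment is not stated in those notes or headers. Each deposited peak has a summit, a pileup signal (the tags at the summit), −log10 p and −log10 q values, and a fold enrichment, the ratio of (pileup + 1) to (input background + 1), from which the background was recovered here. MACS2 sets a floor to it, so lower input cannot be seen.

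Gene positions and promoters came from RefSeq (GRCm38.p6). All 49 listed symbols matched. Start sites were read from the promoter table, which gives strand. Coordinates are 1-based. Counts, windows and intervals (exact Poisson, 95%) were computed in Python 3.11.15 with scipy 1.17.1. With 1 library a group no test was run. Assignment of peaks to genes was tested on simulated data. The genes and lists were chosen with earlier results of these data known. The text names all 10 genes, the 2 strongest and any peakless genes of each list, and neighbours that lie nearer to a peak.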

Additional observations from a re-analysis of the deposited data

How the results depend on the processing

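Each of the 4 counts or medians that describe the 10 genes was recomputed under other windows, peak cutoffs and assignments. Of 33 values, 26 were called unchanged. A count was so called within 1.5 times the main count, and the median within a band of 8.57 to 15.4. That band averages the counting intervals of the middle genes, Ccnd1 and Ccnd2. It is wide and does not measure the spread of the median over genes. Some of the 26 values had no room to move. The 8939 protein-coding genes that reached a fold enrichment of 10 all still did so under the −log10 q cutoff. That cutoff therefore could not lower the 7 genes. A window of 100 kb could not lower the 10 genes with a peak, and leaving out Ccnd3 could only give 9. The 26 of 33 thus overstates how stable the results are. The 97 peaks became 39 within 1 kb of the genes, 56 within 10 kb, 158 within 100 kb and 53 at a −log10 q of at least 10. The 7 genes with a peak of fold enrichment at least 10 became 2 within 1 kb (15.6% of protein-coding genes), 3 within 10 kb (22.2%) and 4 where the gene had to be the nearest protein-coding gene (18.6%). The median strongest fold enrichment ran from 9.56 within 1 kb, where that of protein-coding genes with a peak was 6.91, to 12.8 within 100 kb, where theirs was 11.7. Within 10 kb it was 9.67, against 7.71, and with the gene nearest 9.76, against 7.24. Of the 10 genes, 9 had a peak within 1 kb (62.9% of protein-coding genes), and all 10 did within 10 kb (70.5%). Leaving out Ccnd3 was chosen after the data were seen and gave 71 peaks and 6 of 9 genes with a fold enrichment of at least 10. Depth limits the weakest peaks, which rest on as few as 12 tags, and no replicate library bears on any value.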
